A study of Homo sapiens with 24 samples.

Results

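Mitotic genes encode the proteins that condense, capture, align and separate chromosomes and then divide the cell. A set of 39 of them was followed by matching their symbols to the table of estimated counts, and all 39 were found among 60232 gene identifiers. All 39 also passed the filter on low counts that left 18379 genes for testing. The cells were 22Rv1, an established human prostate carcinoma line, profiled by RNA sequencing in biological triplicate. The groups were KB05 at 200 µM, KB02 at 200 µM and DMSO, the vehicle, all with a time label of 3 h. Compound exposure lasted 1 h, with 2 h of recovery in fresh medium before collection, per the design text. KB05 and KB02 are small molecules given by code name, so no structure is described. The comparisons ask how each compound changed mitotic transcripts and whether the compounds differed from each other at the same dose and time.

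Transcripts of these genes normally build up as cells pass through G2 and are cleared after division. In dividing cells their timing is set by the DREAM complex, which holds the genes silent in G0 and early G1 through an element with the sequence TTTGAA or a variant of it (the cell cycle homology region, CHR). Later in the cycle MYBL2 and FOXM1 activate them, helped by NF-Y bound to CCAAT boxes. In bulk RNA, fewer cells in G2 and mitosis and less RNA per such cell cannot be told apart.

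The stretches just upstream of the start of 5 members are shown because they carry both elements and belong to genes that differ in response: MKI67, CDK1, CENPF and ASPM were lower with both compounds and CDC20 was higher with KB05. Letters come from RefSeq (GRCh38.p14), 5′ to 3′ on the gene's strand. Capitals mark TTTGAA and its variant TTTAAA, each on either strand, so that TTCAAA is in capitals as well. They also mark CCAAT, which on the other strand reads as ATTGG. In MKI67 the second TTTGAA shares its last letter with an ATTGG. The positions are chr10:128126424-128126573 (minus strand) for MKI67, chr10:60778181-60778330 (plus) for CDK1, chr1:214603045-214603194 (plus) for CENPF, chr1:197146695-197146819 (minus) for ASPM and chr1:43358831-43358954 (plus) for CDC20.
MKI67: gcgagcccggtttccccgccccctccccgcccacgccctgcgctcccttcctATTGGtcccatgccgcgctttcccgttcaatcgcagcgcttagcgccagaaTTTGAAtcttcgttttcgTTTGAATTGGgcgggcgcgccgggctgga
CDK1: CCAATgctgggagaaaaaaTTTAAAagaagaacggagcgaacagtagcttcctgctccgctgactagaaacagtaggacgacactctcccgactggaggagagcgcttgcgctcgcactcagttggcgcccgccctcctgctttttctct
CENPF: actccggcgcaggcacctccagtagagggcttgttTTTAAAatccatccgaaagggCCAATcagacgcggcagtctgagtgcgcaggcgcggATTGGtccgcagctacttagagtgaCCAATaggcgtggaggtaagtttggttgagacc
ASPM: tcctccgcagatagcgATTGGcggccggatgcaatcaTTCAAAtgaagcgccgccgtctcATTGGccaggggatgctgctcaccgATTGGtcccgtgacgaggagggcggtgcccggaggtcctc
CDC20: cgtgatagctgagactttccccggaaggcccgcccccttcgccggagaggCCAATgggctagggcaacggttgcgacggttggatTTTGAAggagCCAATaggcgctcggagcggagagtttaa

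A window from 250 bases before to 50 after the start was available for 35 members (TPX2, BIRC5, TTK and AURKA had no entry) and for 27305 genes in all. TTTGAA or TTTAAA, on either strand, lay in the windows of 30 members (85.7%), against 24.3% of all windows. CCAAT, on either strand, lay in 30 members (85.7%), against 35.7%, and both kinds together in 25 members (71.4%), against 9.49%. GGGCGG, the core of SP1 elements, lay in 85.7% of members and 44.6% of all windows. Of the 13 members with a window that were lower with both compounds, 11 held TTTGAA or TTTAAA and 10 held CCAAT, and of the 10 called with neither compound 9 and 8 did. A match describes letters in a window and is not evidence of a bound site.

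With KB05, 21 of the 39 mitotic genes were lower than in DMSO and 2 were higher (CDC20 and SGO1), by edgeR's quasi-likelihood test at an adjusted p under 0.05. That is 53.8% of the members lower, where 21.1% of all genes tested were called lower. The 2 higher members are 5.13%, where the background was 18.7%. Taking both directions, 59% of members and 39.8% of all genes were called. With KB02, 17 were lower (43.6%, background 23.3%) and 1 was higher (KIF18A, 2.56%, background 22.8%). The share called in either direction, 46.2%, was near the 46.1% of all genes, and 17 of the 18 calls were falls. With scaling by library size only, 12 members were lower and 7 higher with KB02. The libraries of 22 members lay wholly below DMSO with KB05 and those of 3 wholly above (background 25.4% and 23.7%), and those of 19 lay below and 2 above with KB02 (background 26.6% and 26.9%). The median log2 fold change of the members was -0.21 with KB05 and -0.18 with KB02, where the median over all genes was -0.00 and 0.00. Most changes were modest. Falls of at least 2-fold were seen for 3 members with KB05 (MKI67, ASPM and KIF18B, where 2.7% of all genes fell that far) and for 1 with KB02 (MKI67, background 6.28%).

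Levels are depth-normalised counts on the CPM scale, with TMM factors. Summed over the 39 genes, the level was 2123, 2204 and 2149 CPM in the KB05 libraries, 2210, 2179 and 2053 CPM in the KB02 libraries and 2479, 2500 and 2527 CPM in the DMSO libraries. Every library of either compound thus lay below every DMSO library. The means were 2159 ± 41.3, 2147 ± 83.2 and 2502 ± 23.7 CPM for KB05, KB02 and DMSO (SD, n = 3 each). These sums depend on the TMM factors. Without them, the mean share of all counts was 0.211%, 0.227% and 0.241% in the same order, with KB02 between KB05 and DMSO. Both comparisons use the same DMSO libraries, so their values are set side by side and no similarity between them was measured.

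Of the members, 14 (35.9%) were lower with both compounds, where 13.2% of all genes tested were. A further 7 (17.9%, background 7.92%) were called lower with KB05 alone and 3 (7.69%, background 10%) with KB02 alone. Against DMSO 12 (30.8%, background 41.1%) were called with neither. Since the comparisons share DMSO libraries, these counts only describe the calls. A call with one compound alone is not a difference between the compounds, which is tested directly further on.

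**Figure D1:**
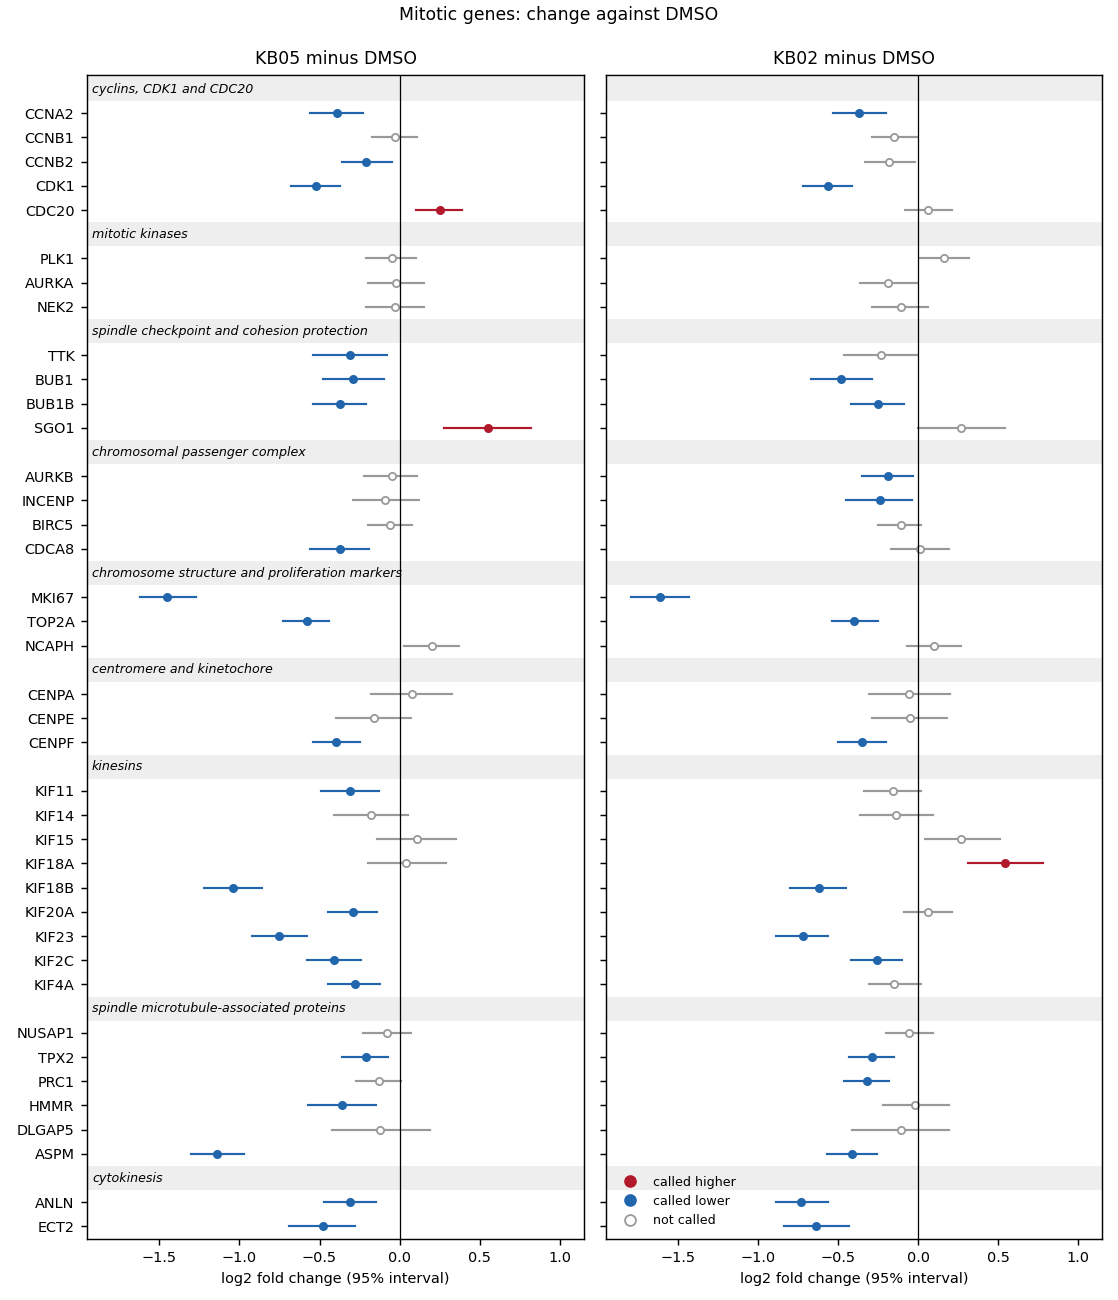
Log2 fold change of the 39 mitotic genes against DMSO, KB05 in one panel and KB02 in the other, as points with 95% intervals, filled where called. MKI67 lies farthest below 0 in both panels, at -1.45 with KB05 and -1.61 with KB02, and most other members lie between 0 and -0.75.

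MKI67, which encodes the Ki-67 protein that coats mitotic chromosomes and serves as a proliferation marker, had the largest fall of the set with either compound. Its level was 34.8, 28.8 and 27.4 CPM with KB05, 26.9, 28.2 and 26.2 CPM with KB02 and 85.3, 87.1 and 75.7 CPM in DMSO. The treated libraries were all far below the DMSO libraries and overlapped each other. It was 2.73-fold lower with KB05 (log2 fold change -1.45 ± 0.09 (SE), adjusted p = 3.1e-14) and 3.05-fold lower with KB02 (-1.61 ± 0.09, adjusted p = 1.11e-15). TOP2A, the topoisomerase that untangles sister DNA before segregation, had 91.5, 90.6 and 91.9 CPM with KB05, 106, 98.6 and 108 CPM with KB02 and 128, 136 and 146 CPM in DMSO. The 3 groups did not overlap, and KB05 was lowest. Its log2 fold change was -0.58 with KB05 and -0.40 with KB02 (adjusted p = 6.31e-08 and 1.68e-05). NCAPH, a condensin subunit, was called in none of the comparisons. MKI67 (ENSG00000148773.14) spans bases 128096659 to 128126385 of chromosome 10, minus strand, on GRCh38 (GENCODE release 29), and like the other members is annotated as protein-coding.

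Among the cyclins and the kinase they switch on, CDK1, the kinase that drives entry into mitosis, had 51.8, 52.6 and 48.5 CPM with KB05, 52.5, 50.6 and 45.5 CPM with KB02 and 78.3, 72.4 and 68.9 CPM in DMSO. No treated library reached a DMSO library. CDK1 changed by -0.52 ± 0.08 with KB05 and by -0.56 ± 0.08 with KB02 on the log2 scale (adjusted p = 2.23e-06 and 3.06e-07). CCNA2, cyclin A2, which acts in S phase and G2, had 48.4, 51.1 and 48.3 CPM with KB05, 53, 49.5 and 47.7 CPM with KB02 and 70.7, 66 and 56.7 CPM in DMSO, with changes of -0.39 and -0.37 (adjusted p = 0.000246 and 0.000334). The mitotic B cyclins had smaller estimates. CCNB2 had 54.6, 61 and 51.7 CPM with KB05, 55, 58.8 and 57 CPM with KB02 and 64.1, 66.2 and 62.8 CPM in DMSO. Both compounds' libraries lay below those of DMSO. The change was -0.21 with KB05 (adjusted p = 0.027) and -0.18 with KB02 (adjusted p = 0.052, not called). The KB05 call was lost without DMSO replicate 2, KB05 replicate 1 or KB05 replicate 3 (adjusted p = 0.0998, 0.0799 and 0.154), and with upper-quartile or library-size scaling (0.0585 and 0.0606). CCNB1 was called in no comparison, with -0.03 for KB05 (95% interval -0.17 to 0.11) and -0.15 for KB02 (-0.29 to -0.01, adjusted p = 0.0831).

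CDC20, the activator of the anaphase-promoting complex, went the other way. It had 265, 266 and 268 CPM with KB05, 243, 227 and 233 CPM with KB02 and 202, 224 and 247 CPM in DMSO. The KB05 libraries were above all others, while KB02 and DMSO overlapped. It rose 1.19-fold with KB05 (log2 fold change 0.25 ± 0.07, adjusted p = 0.00601), and with KB02 the difference was 0.06 (95% interval -0.08 to 0.21). CDC20 (ENSG00000117399.14) spans 43358955 to 43363203 of chromosome 1, plus strand.

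None of the 3 kinases PLK1, AURKA and NEK2, which act on centrosomes and the spindle, was called against DMSO with either compound. PLK1 had 119, 118 and 122 CPM with KB05, 150, 134 and 132 CPM with KB02 and 113, 119 and 141 CPM in DMSO. The DMSO libraries spread widely and overlapped both treatments, with differences of -0.05 for KB05 (95% interval -0.21 to 0.10) and 0.16 for KB02 (0.01 to 0.32, adjusted p = 0.0803). PLK1 shares 11.6% of its exon bases with an antisense gene on the other strand (AC008870.3 in GENCODE).

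All 4 genes of the spindle checkpoint and of cohesion protection were called with KB05, 3 lower and 1 higher (39.8% of all genes were called, 21.1% lower and 18.7% higher). BUB1B, which encodes BubR1, a checkpoint protein that restrains CDC20, had 35.8, 38.7 and 39.8 CPM with KB05, 40.8, 43.7 and 39.3 CPM with KB02 and 47.5, 52.9 and 47.3 CPM in DMSO. It was lower with both, by -0.37 (adjusted p = 0.000409) and -0.25 (adjusted p = 0.00866). The KB02 call was lost without DMSO replicate 2 or KB02 replicate 1 (adjusted p = 0.191 and 0.088) and, with scaling by library size only, at 0.236. BUB1B shares 10.2% of its exon bases with the read-through gene BUB1B-PAK6. BUB1, a kinase that recruits checkpoint proteins to kinetochores, had 24.9, 27.4 and 24 CPM with KB05, 24.3, 22.4 and 20 CPM with KB02 and 30.8, 32.1 and 30.3 CPM in DMSO. Both treatments lay below DMSO, with changes of -0.29 for KB05 (adjusted p = 0.0116) and -0.48 for KB02 (adjusted p = 5.73e-05). Without DMSO replicate 2 or KB05 replicate 3 the KB05 call was lost (adjusted p = 0.0512 and 0.0637). TTK, which encodes the checkpoint kinase MPS1, had 12.1, 14 and 14.1 CPM with KB05, 13.2, 15 and 14.1 CPM with KB02 and 17.9, 16.4 and 15.3 CPM in DMSO. The DMSO libraries were all above the treated ones. Its change of -0.31 with KB05 (adjusted p = 0.0286) was lost without DMSO replicate 1, DMSO replicate 2 or KB05 replicate 1 (adjusted p = 0.117, 0.06 and 0.137), and the -0.23 with KB02 was not called (adjusted p = 0.083).

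SGO1, shugoshin, which shields centromeric cohesin until anaphase, was the member with the largest rise with KB05. It had 12.1, 13.8 and 13.7 CPM with KB05, 12.1, 11.2 and 9.2 CPM with KB02 and 9.68, 9.09 and 8.21 CPM in DMSO. The KB05 libraries were above all DMSO libraries and the KB02 libraries lay between and overlapped those of DMSO. It rose 1.46-fold with KB05 (log2 fold change 0.55 ± 0.13, adjusted p = 0.00106), and the 0.27 with KB02 was not called (adjusted p = 0.0903). SGO1 (ENSG00000129810.15) spans 20160593 to 20186292 of chromosome 3, minus strand. It shares 17.7% of its exon bases with SGO1-AS1 on the other strand. No source used here says if the libraries kept strand, so reads from the shared part may not be told apart.

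The chromosomal passenger complex, which corrects wrong attachments and then guides cytokinesis, had 1 of its 4 members called lower with KB05 and 2 with KB02 (25% and 50%, background 21.1% and 23.3%). Its scaffold INCENP had 24.9, 25.1 and 24.3 CPM with KB05, 25.4, 21 and 20.1 CPM with KB02 and 23.8, 25.7 and 29.5 CPM in DMSO. Its kinase AURKB had 81.2, 93.3 and 93.8 CPM with KB05, 77.6, 81.6 and 84.4 CPM with KB02 and 81.2, 95.7 and 101 CPM in DMSO. In both genes the groups overlapped. The KB02 calls, -0.24 for INCENP (adjusted p = 0.0454) and -0.19 for AURKB (adjusted p = 0.0479), were the weakest of the set and were lost in 12 and 13 of the 18 alternative settings, with adjusted p up to 0.398 and 0.57. Leaving out DMSO replicate 2, DMSO replicate 3, KB02 replicate 2 or KB05 replicate 3 ended either call. So did leaving out KB02 replicate 3 or KB05 replicate 1 for INCENP and KB02 replicate 1 or KB05 replicate 2 for AURKB. CDCA8, borealin, had 25.5, 23.5 and 22.1 CPM with KB05, 31.9, 30.3 and 30.8 CPM with KB02 and 33.6, 28.2 and 30.6 CPM in DMSO. The KB05 libraries lay below all others and those of KB02 and DMSO overlapped. It changed by -0.37 with KB05 (adjusted p = 0.00129) and by 0.01 with KB02 (95% interval -0.17 to 0.19). BIRC5, survivin, was called in no comparison.

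At the centromere and kinetochore, CENPF, a large protein of the outer kinetochore, had 82.1, 74.2 and 83.6 CPM with KB05, 76.7, 84.7 and 86.6 CPM with KB02 and 101, 106 and 109 CPM in DMSO. Treated and DMSO libraries did not overlap. It changed by -0.40 with KB05 and -0.35 with KB02 (adjusted p = 4.82e-05 and 0.000145). The centromeric histone CENPA and the kinetochore motor CENPE were not called.

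**Figure D2:**
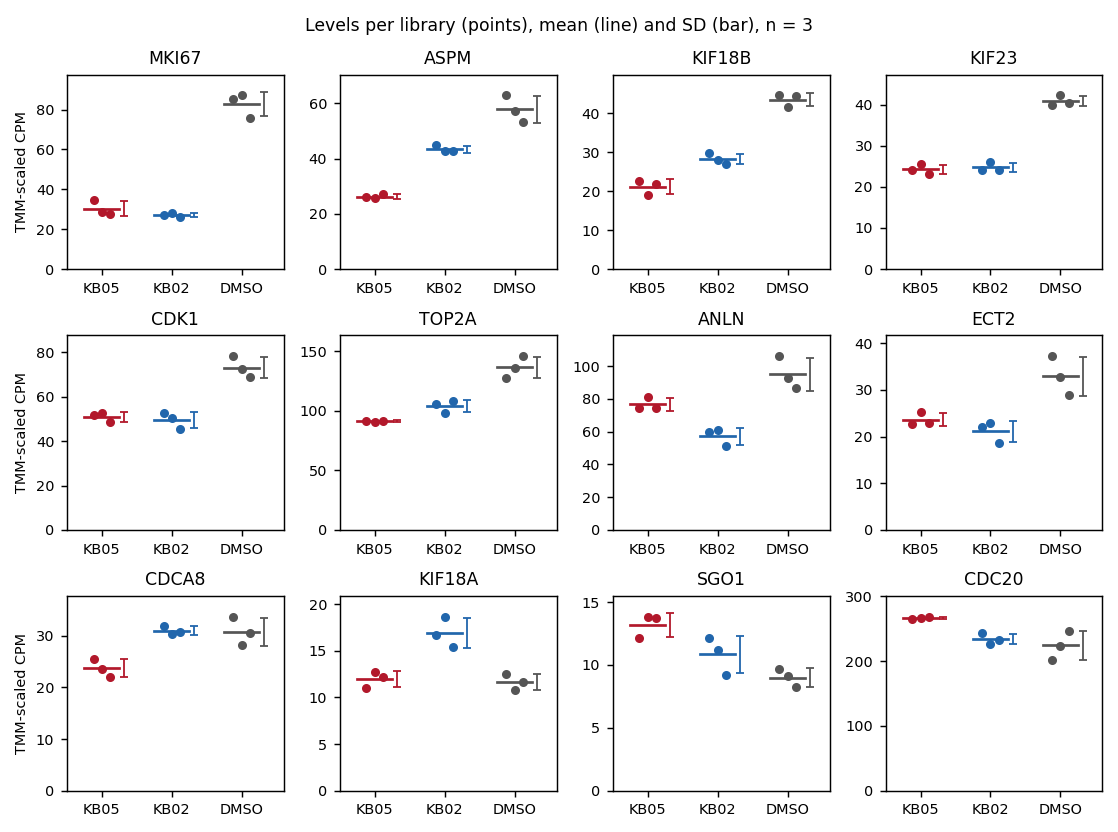
Levels of 12 members in each library as points (TMM-scaled CPM, axes from 0), with the mean as a line and the SD as a bar, n = 3 per group. MKI67, KIF23 and CDK1 lie at one low level with both compounds, whereas ASPM has 3 separate levels, 26.3 ± 0.745 with KB05, 43.4 ± 1.27 with KB02 and 57.8 ± 4.75 in DMSO.

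Of the 9 kinesins, the motors that move chromosomes and slide spindle microtubules, 6 fell with KB05 and none rose (66.7% called, background 39.8%). With KB02 3 fell and 1 rose, and the 44.4% called is close to the 46.1% of all genes. KIF18B, which acts on the plus ends of astral microtubules, had 22.7, 18.9 and 21.8 CPM with KB05, 29.7, 28.1 and 27 CPM with KB02 and 44.6, 41.6 and 44.4 CPM in DMSO. The 3 groups were separate, with KB05 lowest. It was 2.05-fold lower with KB05 (log2 fold change -1.04 ± 0.09, adjusted p = 8.75e-11) and 1.54-fold lower with KB02 (-0.62 ± 0.09, adjusted p = 3.52e-07). KIF23, the motor subunit of centralspindlin, had 24.1, 25.5 and 23.2 CPM with KB05, 24.2, 26 and 24.1 CPM with KB02 and 40, 42.3 and 40.5 CPM in DMSO. Both treated groups lay in one range, well below DMSO, with changes of -0.75 ± 0.08 for KB05 and -0.72 ± 0.08 for KB02. KIF2C, the microtubule-depolymerising kinesin MCAK, had 40.1, 40.8 and 36.7 CPM with KB05, 47.5, 41.3 and 41.5 CPM with KB02 and 50.8, 55.5 and 49.9 CPM in DMSO. It changed by -0.41 with KB05 (adjusted p = 0.000151) and -0.26 with KB02 (adjusted p = 0.00807). The KB02 call was lost without DMSO replicate 2 or KB02 replicate 2 (adjusted p = 0.16 and 0.12) and, with scaling by library size only, at 0.224.

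A further 3 kinesins were called lower with KB05 but not with KB02. KIF20A, a motor of the central spindle, had 44.1, 48.8 and 45.3 CPM with KB05, 60.8, 59.8 and 55.7 CPM with KB02 and 56.2, 54.6 and 58.2 CPM in DMSO. KB05 was below all other libraries, by -0.29 against DMSO (adjusted p = 0.00232). KIF11, the motor that pushes spindle poles apart, had 40.2, 40.6 and 34.9 CPM with KB05, 45, 43.9 and 39.3 CPM with KB02 and 53.3, 48 and 42.1 CPM in DMSO. The KB05 libraries lay below DMSO, and KB02 overlapped both. The KB05 change of -0.31 (adjusted p = 0.00579) was lost without DMSO replicate 1 or KB05 replicate 3 (adjusted p = 0.0507 and 0.0553). KIF4A, a motor that binds chromosome arms, had 31.5, 30.9 and 31 CPM with KB05, 35.3, 34.2 and 33.3 CPM with KB02 and 35.1, 41 and 37.7 CPM in DMSO. The KB05 libraries were the lowest and hardly varied. Its change of -0.28 (adjusted p = 0.00622) was lost without DMSO replicate 2 (adjusted p = 0.0645). KIF4B, a close copy of KIF4A, had 7 counts over all 9 libraries, against 5876 for KIF4A.

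KIF18A, which damps chromosome movements at the metaphase plate, was the one member higher with KB02. It had 11, 12.7 and 12.2 CPM with KB05, 16.7, 18.6 and 15.4 CPM with KB02 and 12.5, 10.8 and 11.6 CPM in DMSO. The KB02 libraries were above all others. It rose 1.46-fold with KB02 (log2 fold change 0.54 ± 0.11, adjusted p = 0.000227), and with KB05 the difference was 0.04 (95% interval -0.20 to 0.29). KIF18A (ENSG00000121621.7) spans 28020620 to 28108308 of chromosome 11 and KIF18B (ENSG00000186185.14) 44924709 to 44947711 of chromosome 17, both on the minus strand. KIF14 and KIF15 were not called.

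Among spindle microtubule-associated proteins, ASPM, which organises microtubule minus ends at spindle poles, separated the compounds most. It had 26.1, 25.6 and 27.1 CPM with KB05, 44.9, 42.8 and 42.6 CPM with KB02 and 62.9, 57.2 and 53.4 CPM in DMSO. The groups did not overlap and KB05 was lowest. It was 2.2-fold lower with KB05 (log2 fold change -1.14 ± 0.08, adjusted p = 1.71e-12) and 1.33-fold lower with KB02 (-0.41 ± 0.08, adjusted p = 4.83e-05). ASPM (ENSG00000066279.19) spans 197084128 to 197146694 of chromosome 1, minus strand. TPX2, which activates Aurora A and nucleates microtubules near chromatin, had 120, 120 and 113 CPM with KB05, 114, 118 and 103 CPM with KB02 and 130, 140 and 139 CPM in DMSO. All treated libraries were below DMSO. Its changes were -0.21 with KB05 (adjusted p = 0.0155) and -0.29 with KB02 (adjusted p = 0.00089). Without DMSO replicate 2 or KB05 replicate 3 the KB05 call was lost (adjusted p = 0.067 and 0.0812), and the KB02 call was lost with scaling by library size only (adjusted p = 0.0672).

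HMMR, a hyaluronan receptor that also sits at spindle poles, had 27.4, 29.9 and 23.7 CPM with KB05, 35.9, 37.8 and 28.4 CPM with KB02 and 36.9, 34.5 and 32.2 CPM in DMSO. The KB05 libraries were below DMSO but overlapped KB02, whose replicate 3 was low. The KB05 change was -0.36 (adjusted p = 0.00671, and 0.0588 without KB05 replicate 3), and that of KB02 was -0.02 (95% interval -0.22 to 0.19). PRC1, which bundles antiparallel microtubules of the central spindle, had 100, 108 and 97.8 CPM with KB05, 92.3, 91.1 and 84.9 CPM with KB02 and 112, 110 and 114 CPM in DMSO. The groups did not overlap and KB02 was lowest. It changed by -0.32 with KB02 (adjusted p = 0.000249), and the -0.13 with KB05 was not called (adjusted p = 0.136). PRC1 shares 57.6% of its exon bases with a read-through gene on the same strand (AC068831.7 in GENCODE), so its counts rest on an estimated split. The same holds for NUSAP1 (62.2%), which like DLGAP5 was not called.

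The 2 members listed under cytokinesis, ANLN and ECT2, were lower with both compounds, where 13.2% of all genes tested were. Members of the central spindle and the passenger complex are listed elsewhere, and not all were lower with both. KIF23 was lower with both, KIF20A was called lower with KB05 alone and PRC1 with KB02 alone. ANLN, anillin, the scaffold of the contractile ring, had 74.2, 81.3 and 74.4 CPM with KB05, 59.6, 60.9 and 51.2 CPM with KB02 and 106, 92.6 and 86.4 CPM in DMSO. The groups did not overlap, and here KB02 was lowest. It was 1.24-fold lower with KB05 (log2 fold change -0.31 ± 0.08, adjusted p = 0.00251) and 1.66-fold lower with KB02 (-0.73 ± 0.08, adjusted p = 6.39e-09). ANLN (ENSG00000011426.11) spans 36389806 to 36453791 of chromosome 7, plus strand. ECT2, the exchange factor that activates RhoA at the cleavage site, had 22.7, 25.2 and 22.9 CPM with KB05, 22.1, 22.8 and 18.6 CPM with KB02 and 37.2, 32.8 and 28.8 CPM in DMSO. Treated libraries were all below DMSO, with changes of -0.48 and -0.64 (adjusted p = 0.000247 and 3.45e-06).

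The 11 members called in none of the 3 comparisons (28.2%) were CCNB1, AURKA, NEK2, BIRC5, NCAPH, CENPA, CENPE, KIF14, KIF15, NUSAP1 and DLGAP5. The share of all genes called in none of the 3 was not counted. Against DMSO 41.1% of all genes were called with neither compound, so the 11 are not read as a feature of the set. Depth was not low for any of the set, since the lowest count of a member in any library was 117 and standard errors ran from 0.07 to 0.15. Gene span, 4249 to 130743 bp with a median of 31743 bp, had a Spearman rho of -0.12 with the log2 fold change of KB05 and -0.06 with that of KB02 over the 39 members. Over 14396 protein-coding genes the same values were -0.17 and 0.01. These describe genes that share libraries, and no p is given.

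The direct comparison of KB05 with KB02, at the same dose and time, was made for all 39 members, with p-values adjusted over all 18379 genes. It called 8 members lower with KB05 (20.5%, where 18.2% of all genes were) and 3 higher (7.69%, background 21.8%), and the share called lower is near the background. With scaling by library size only, 12 were lower and 1 higher. In either direction 28.2% of members and 40% of all genes were called, and the libraries of 9 members lay wholly below and of 4 wholly above those of KB02 (background 22.7% and 27.6%). The median difference was -0.03, against 0.06 over all genes. ASPM differed most, 1.65-fold lower with KB05 (log2 difference -0.72 ± 0.08, adjusted p = 1.42e-08). KIF18A was lower by -0.50 ± 0.12 (adjusted p = 0.000736), KIF18B by -0.42 ± 0.09 (adjusted p = 0.000341), CDCA8 by -0.38 ± 0.09 (adjusted p = 0.000898) and KIF20A by -0.35 ± 0.07 (adjusted p = 0.000274). In each of these 5 genes the KB05 libraries all lay below the KB02 libraries. ANLN was 1.34-fold higher with KB05 (0.42 ± 0.08, adjusted p = 9.69e-05), and its KB05 libraries all lay above those of KB02.

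Smaller calls between the compounds depended on single libraries. HMMR was lower with KB05 by -0.34 (adjusted p = 0.00913, and 0.078 without KB05 replicate 3). For PLK1 the difference was -0.22 (adjusted p = 0.0232), lost without KB02 replicate 1, KB05 replicate 1 or KB05 replicate 2 (adjusted p = 0.0528, 0.0649 and 0.083). TOP2A differed by -0.19 (adjusted p = 0.0303), lost without KB02 replicate 3 or any 1 KB05 library (adjusted p = 0.0677 to 0.097) and with no filter on low counts (0.0656). The higher calls of CDC20 (0.18, adjusted p = 0.0386) and PRC1 (0.19, adjusted p = 0.0264) were lost in 12 and 10 of 18 alternative settings, with adjusted p up to 0.439 and 0.423. For each of the pair, those settings included leaving out DMSO replicate 2, any KB02 library or KB05 replicate 2, and for CDC20 also KB05 replicate 1 or 3.

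Of the 14 members lower with both compounds, 10 were not called between them. Over all genes tested 40% were called between the compounds, and the share among genes lower with both was not counted. The 95% interval of the difference was -0.02 to 0.35 for MKI67, -0.12 to 0.20 for CDK1, -0.19 to 0.14 for CCNA2, -0.20 to 0.15 for KIF23 and -0.19 to 0.10 for CENPF. For the rest it was 0.00 to 0.38 for BUB1, -0.28 to 0.05 for BUB1B and -0.06 to 0.36 for ECT2. It was -0.06 to 0.22 for TPX2 and -0.32 to 0.02 for KIF2C, whose KB05 libraries all lay below those of KB02. Differences inside these limits could not be told from none at this replication.

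**Figure D3:**
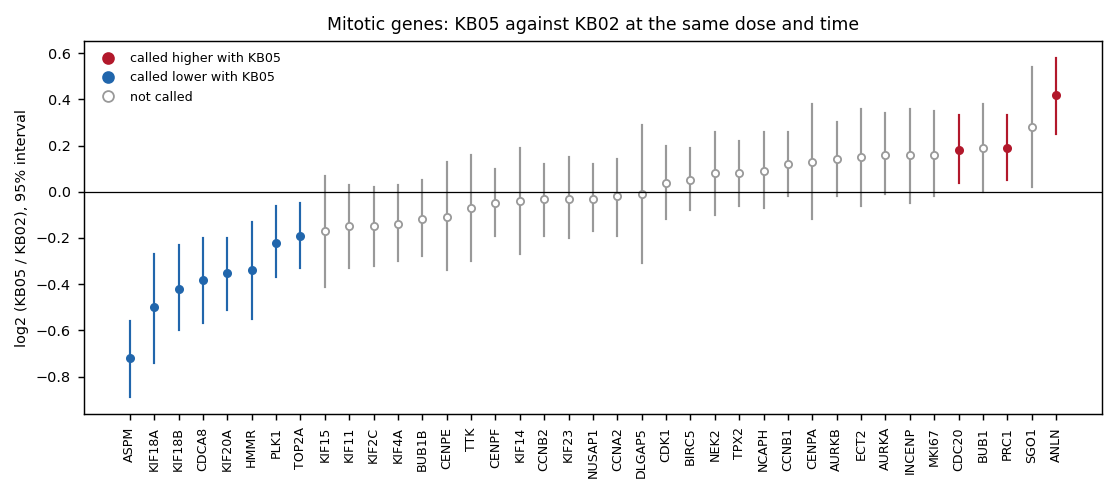
Log2 difference of KB05 minus KB02 for the 39 mitotic genes, sorted, as points with 95% intervals, filled where called. ASPM (-0.72) and ANLN (0.42) stand at the ends, and 28 members are not called.

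Genes that work with these members were listed by function for comparison. Over all genes, 21.1% were lower and 18.7% higher with KB05, and 23.3% lower and 22.8% higher with KB02, and each list's shares are read against these. The 16 regulators of mitotic transcription had 6 lower and 3 higher with KB05 (37.5% and 18.8%) and 7 lower and 3 higher with KB02 (43.8% and 18.8%), with medians of -0.10 and -0.04. RBL2, the p130 pocket protein of the DREAM complex, was at 29 ± 1.75 CPM with KB05, 24.1 ± 2.16 with KB02 and 54.9 ± 6.56 in DMSO (log2 fold change -0.92 and -1.18, adjusted p = 2e-09 and 2.76e-12). LIN52, a MuvB core subunit found in DREAM, was at 21.3 ± 2.27 CPM with KB05, 35.9 ± 1.03 with KB02 and 16.6 ± 1.01 in DMSO. It rose 1.27-fold with KB05 and 2.15-fold with KB02 (adjusted p = 0.00492 and 2.58e-11), and KB05 was 1.69-fold below KB02 (adjusted p = 7.53e-08). The activators FOXM1 and MYBL2 moved less. FOXM1 was at 115 ± 5.66 CPM with KB05, 101 ± 6.52 with KB02 and 116 ± 2.73 in DMSO. MYBL2 was at 84.2 ± 2.53, 95 ± 3.65 and 85.3 ± 4.6 CPM with KB05, KB02 and DMSO.

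Proteins that regulate CDK1 numbered 14, with 5 lower and 3 higher with either compound (35.7% and 21.4%). WEE1, the kinase that holds CDK1 inactive, was at 48.0 ± 4.89 CPM with KB05, 25.4 ± 2.8 with KB02 and 71.3 ± 4.45 in DMSO. It was 1.48-fold lower with KB05 and 2.8-fold lower with KB02 (adjusted p = 3.48e-06 and 1.2e-14). PKMYT1, the second inhibitory kinase of CDK1, was at 229 ± 8.12, 183 ± 13 and 332 ± 32.4 CPM with KB05, KB02 and DMSO, with changes of -0.53 and -0.86. CKS2, a CDK-binding subunit, was at 40 ± 2.52, 61.7 ± 5.6 and 33.9 ± 3.2 CPM in the same groups and rose with both, by 0.24 (adjusted p = 0.0294) and 0.87 (adjusted p = 5.51e-10).

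Genes of the anaphase-promoting complex and mitotic ubiquitination (20, among them its coactivator FZR1, its inhibitor FBXO5 and the protease ESPL1) had 7 lower and 1 higher with KB05 (35% and 5%) and 6 lower and 4 higher with KB02 (30% and 20%). ESPL1, separase, which cuts cohesin at anaphase, was at 39.4 ± 0.498 CPM with KB05, 47.3 ± 1.84 with KB02 and 83.4 ± 1.99 in DMSO. It was 2.12-fold lower with KB05 and 1.76-fold lower with KB02 (adjusted p = 3.87e-13 and 3.55e-11). FBXO5, the complex's inhibitor EMI1, was at 13.7 ± 0.384 CPM with KB05, 23.6 ± 3.04 with KB02 and 26.0 ± 1.11 in DMSO, 1.9-fold lower with KB05 (adjusted p = 2.1e-08), and the -0.14 with KB02 was not called (adjusted p = 0.265).

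Other condensin and cohesin genes (18) had 10 lower and none higher with KB05 (55.6% lower) and 7 lower and 5 higher with KB02 (38.9% and 27.8%). SMC1A, a cohesin core subunit, was at 113 ± 4.25 CPM with KB05, 95.2 ± 7.06 with KB02 and 171 ± 15.4 in DMSO (-0.61 and -0.85, adjusted p = 1.06e-07 and 4.8e-11). PDS5B, a cohesin regulator, was at 8.44 ± 0.179, 19.1 ± 0.791 and 8.31 ± 1.47 CPM with KB05, KB02 and DMSO, 2.3-fold higher with KB02 (adjusted p = 1.54e-09). Other spindle, centrosome and cytokinesis genes (25) had 12 lower and 2 higher with KB05 (48% and 8%) and 9 lower and 7 higher with KB02 (36% and 28%). RACGAP1, the partner of KIF23 in centralspindlin, was at 20.2 ± 1.62, 23.3 ± 2.11 and 37.8 ± 4.06 CPM in those groups, 1.87-fold lower with KB05 and 1.62-fold lower with KB02 (adjusted p = 1.26e-08 and 3.65e-07).

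Other kinetochore and checkpoint genes (36) had 5 lower and 5 higher with KB05 (13.9% each) and 7 lower and 9 higher with KB02 (19.4% and 25%), with medians of -0.01 and 0.09. KNTC1, the ROD subunit that brings dynein to kinetochores, was at 22.1 ± 0.0857 CPM with KB05, 54.6 ± 4.94 with KB02 and 46.9 ± 4.91 in DMSO. It was 2.12-fold lower with KB05 (adjusted p = 4.95e-11) and 1.16-fold higher with KB02 (adjusted p = 0.0325). CENPW, a subunit of the constitutive centromere network, was at 45.3 ± 1.89, 27.9 ± 0.724 and 45.9 ± 0.897 CPM in those groups, 1.65-fold lower with KB02 (adjusted p = 3.23e-09). NSL1, of the same list, was 1.53-fold higher with KB05 and 1.35-fold higher with KB02 (adjusted p = 1.56e-06 and 0.000115).

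Genes of earlier cell cycle phases were counted the same way. Of 42 DNA replication genes, 12 were lower and 8 higher with KB05 (28.6% and 19%, near the shares of all genes) and 20 were lower and 5 higher with KB02 (47.6% and 11.9%). Directly, 4 were lower and 15 higher with KB05 than with KB02 (9.52% and 35.7%, background 18.2% and 21.8%). Of 20 G1/S cyclins and regulators, 7 were lower and 3 higher with KB05 (35% and 15%) and 10 were lower and 5 higher with KB02 (50% and 25%). Among these 20, CCNE2 was 3.21-fold lower with KB05 and 2.56-fold lower with KB02 (adjusted p = 5.45e-10 and 5.14e-09). CDKN2B was 2.39-fold higher with KB05 and 2.88-fold higher with KB02 (adjusted p = 2.06e-06 and 1.9e-08). RRM2, a ribonucleotide reductase subunit, was at 145 ± 3.74 CPM with KB05, 122 ± 7.95 with KB02 and 208 ± 2.6 in DMSO, and was called lower with both (-0.52 and -0.76). POLE, the leading-strand polymerase, was at 79.7 ± 3.74, 113 ± 1.03 and 168 ± 10.4 CPM in those groups, 2.1-fold lower with KB05 and 1.49-fold lower with KB02. These counts are descriptions, and no list was tested against another.

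**Figure D4:**
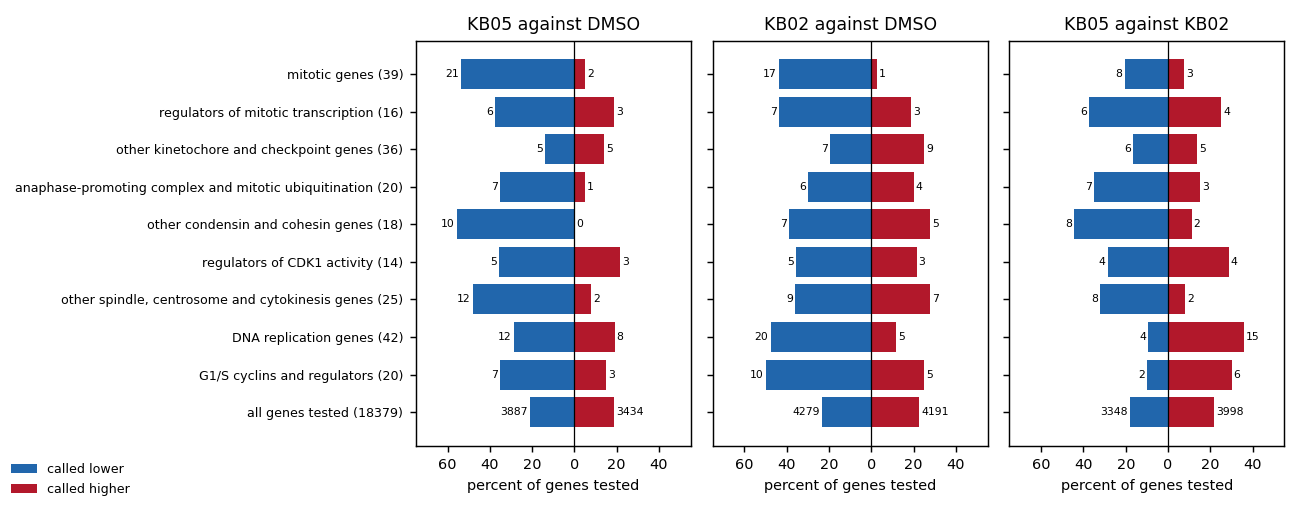
Percent of tested genes called lower (left of 0) and higher (right of 0) in each functional list and over all genes, with counts at the bars, in 3 panels for KB05 against DMSO, KB02 against DMSO and KB05 against KB02. The mitotic genes have 21 lower and 2 higher with KB05 and 17 lower and 1 higher with KB02.

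Total counts per library were 15507130 to 19617330 with KB05, 17216861 to 21900671 with KB02 and 17565251 to 19830410 in DMSO. The share of all counts held by the 39 genes was 0.211 ± 0.00674%, 0.227 ± 0.0104% and 0.241 ± 0.00409% in those groups (SD, n = 3 each). Of 10 luminal prostate markers all were detected, with a summed level of 3.26e+03 to 3.34e+03 CPM with KB05, 2.48e+03 to 2.64e+03 with KB02 and 2.85e+03 to 3.22e+03 in DMSO. Of 18 markers of other cell types 11 passed the filter, with sums of 237 to 263, 169 to 185 and 268 to 312 CPM in the same groups, CDH5 at 0 in every library, and most of the sum from SYP. SYP was 1.99-fold lower with KB02 (adjusted p = 6.56e-13) and 1.2-fold lower with KB05 (adjusted p = 0.0037). Single markers moved both ways with KB02. The monocyte marker CD14 was at 0.397 ± 0.269 CPM with KB05, 8.8 ± 2.62 with KB02 and 0.541 ± 0.249 in DMSO (16.4-fold higher with KB02, adjusted p = 3.27e-08). The macrophage marker CD68 was 2.82-fold lower and the collagen gene COL1A1 1.56-fold higher with KB02 (adjusted p = 3.41e-05 and 2.25e-05), and COL1A1 was 1.36-fold higher with KB05 (adjusted p = 0.00261). Among the 10 luminal markers, 7 were lower and 1 higher with KB02 (70% and 10%, background 23.3% and 22.8%). With KB05, 2 were lower and 4 higher (20% and 40%, background 21.1% and 18.7%). Directly, 1 was lower and 9 higher with KB05 than with KB02 (10% and 90%, background 18.2% and 21.8%). EPCAM and TMPRSS2 were 2.72-fold and 2.53-fold lower with KB02. Both were also lower with KB05, with log2 fold changes of -0.38 and -0.81 (adjusted p = 0.000113 and 2.56e-09). KLK2 was 1.34-fold higher with KB05. The part of these marker differences in the mitotic results was not tested.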

How the data were processed

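RNA from 22Rv1 cells was sequenced in 9 libraries, 3 per group. The deposited values are estimated counts per gene, not scaled to depth. The tools named are Salmon 1.3.0 and DESeq2 1.30.1 and the builds hg38 and GRCh38.p13, per the submitters' processing notes. Salmon splits reads of near-identical or overlapping transcripts by estimate. No source used here gives the strand setting. Exon bases of 14 members are shared with another annotated gene, among them CCNA2 (9.08%, with EXOSC9 on the other strand). Values with a fraction (20.3% to 24.3% per library) were rounded to whole numbers. Of 60232 identifiers, 60064 matched a name table and 41714 had a symbol. Positions are from GENCODE release 29 (GRCh38), counted from 1.

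Testing used edgeR 4.0.16 in R 4.3.3: filterByExpr by group with a minimum count of 10 (18379 genes), TMM scaling and 1 robust quasi-likelihood fit of the 3 groups with no block. Adjusted p-values (Benjamini-Hochberg over all genes tested, threshold 0.05) are from this fit, the standard error (SE) is the log2 fold change over the square root of F, and intervals are at 95%. With 3 libraries a group, p-values set each difference between groups against the spread between these cultures. Scaling, filter, robust estimation, samples in the fit, a replicate block, left-out libraries and DESeq2 1.42.0 were the alternatives. Members and gene lists were chosen with earlier results of these data known. Members called in at least 1 comparison are given per library. From each functional list, named genes come from the 2 largest called changes per comparison with a mean log2 CPM of at least 1. FOXM1 and MYBL2 are given besides, by level only. Replicates differed by more than sampling noise (chi-square per degree of freedom 4.43 to 10.6), so each library counts as 1 sample. The 15 samples at 8 h were not analysed here.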

Additional observations from a re-analysis of the deposited data

How the results depend on the processing

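No member call changed sign under any of the 18 alternatives. Of the member calls, 16 of 23 for KB05 against DMSO, 13 of 18 for KB02 against DMSO and 6 of 11 for KB05 against KB02 held in all of them. The count of members called higher moved most. For KB02 against DMSO (main count 1) it was 2 with RLE scaling, 4 with upper-quartile scaling, 7 with scaling by library size only, 2 with a minimum count of 50, 2 with the replicate block and 1 to 4 with 1 library left out. For KB05 against KB02 (main count 3) it was 1 with RLE, upper-quartile or library-size scaling, with only the 2 groups compared and with DESeq2, and 1 to 3 with 1 library left out. Scaling by library size only shifted the median of all genes by 0.13 for KB02 against DMSO and by -0.11 for KB05 against KB02. With it, the members' medians were -0.05 and -0.14, in place of -0.18 and -0.03, and the share of all calls that were higher was 63.8% and 37.4%, in place of 49.5% and 54.4%.

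Counts of lower members ranged over 16 to 21 for KB05, 13 to 19 for KB02 and 6 to 9 between compounds with 1 library left out, and were 20, 12 and 12 with scaling by library size only, in place of 21, 17 and 8. Pairing of the libraries by replicate number was at most weak. Correlations of same-numbered libraries ran from -0.0412 to 0.0813 over 9 pairs, and those of the other pairs from -0.0658 to 0.0393. In 10 of 18 checks a library's own number was the best match, so a weak pairing may remain. With the replicate block the lower members numbered 21, 18 and 8 and the genes called 7476, 8600 and 7518, in place of 7321, 8470 and 7346. DESeq2 called 6805, 7990 and 6775 genes. The causes of these shifts were not tested.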
